A study of Mus musculus with 14 samples.

Results

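The hairpins described here are markers of blood and liver in RNA that was taken from vesicles of macrophages. The rule takes 4 erythroid hairpins, mmu-mir-451a, mmu-mir-144, mmu-mir-486a and mmu-mir-486b, and 5 hairpins of liver and gut, mmu-mir-122, mmu-mir-192, mmu-mir-194-1, mmu-mir-194-2 and mmu-mir-215 (the prefix mmu, for mouse, is left out below). All 9 had a row among the 539 hairpins of the authors' deposited table. They were chosen by name, not by a measured value, though with earlier results of these data known.

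Small RNA was sequenced from exosomes of adipose tissue macrophages, the CD11b+F4/80+ cells of mouse fat. The mice were C57BL/6 in both groups, and the labels call 7 libraries obese and 7 lean. All cells were cultured for 72 h in IMDM with 10% serum that had been cleared of exosomes, and vesicles were then spun out of the medium by ultracentrifugation. The labels do not give the diet, the sex or the number of animals behind a library. The upper end of the labelled age range steps up by 1 week from sample to sample, from the first obese to the last lean library, so if these labels hold, age cannot be told apart from the obese and lean groups. Nothing says that libraries came from separate animals, so the p-values measure the spread between these libraries, which may be technical. The table gives 1 log2 fold change, 1 mean log2 expression and 1 p-value per hairpin and no value for a single library. Depth per library is therefore unknown. Its header leaves the numerator of the fold changes unnamed, so they are given as positive, the side of mir-155, or negative. A paper known for these exosomes described a higher level of miR-155 in the obese group, and under that description positive stands for higher in obese.

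A microRNA (miRNA) is cut from a hairpin precursor, and the bases 2 to 8 of the mature strand, its seed, choose most of its targets. miR-451a and miR-144 come from 1 transcript that is switched on as red cells mature, and miR-451a is cut by Argonaute 2 in place of Dicer. miR-486 lies in an intron of Ank1, the gene of a red cell membrane protein, and is found in red cells and in muscle. miR-122 is the leading miRNA of hepatocytes, while miR-192, miR-194 and miR-215 are enriched in liver, gut and kidney. Fat pads hold blood vessels, and culture serum holds small RNA, so these miRNAs can be looked for in a preparation meant to hold macrophage vesicles.

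The mature sequences come from RefSeq on GRCm38.p6, which held 6 of the 9 hairpins, and are shown because several rows share sequence. Seeds are in capitals, 5′ to 3′.
miR-451a: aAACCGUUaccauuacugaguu
miR-144-3p: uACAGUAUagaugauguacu
miR-144-5p: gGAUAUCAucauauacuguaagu
miR-194-5p: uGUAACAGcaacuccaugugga
miR-194-1-3p: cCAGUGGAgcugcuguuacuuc
miR-194-2-3p: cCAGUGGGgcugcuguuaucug
miR-192-5p: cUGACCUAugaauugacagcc
miR-215-5p: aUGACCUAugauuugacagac
The 5p strands of miR-192 and miR-215 share the seed UGACCUA, which no other mature miRNA in the RefSeq table had. They are identical at 18 of 21 bases, and counted from the 5′ end of miR-192-5p the differences are C1A, A12U and C20A. miR-194-5p is the same in both copies of mir-194, and only the 3p strands, identical at 18 of 22 bases, tell the copies apart (A8G, C19U, U20C and C22G, counted on the strand of mir-194-1). The seeds of miR-451a, miR-144-3p, miR-144-5p and miR-194-5p were each found in 1 mature miRNA of the table.

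The hairpins lie in 3 short clusters on GRCm38. On chromosome 11, mir-144 (bases 78073005 to 78073070, plus strand) is followed after 99 bases by mir-451a (bases 78073170 to 78073241). GENCODE M21 places neither within a longer gene. On chromosome 1, mir-194-1 (bases 185313319 to 185313385, plus strand) precedes mir-215 (bases 185313581 to 185313692) by 195 bases. Both lie in an intron of Iars2 on the other strand and within 2010103J01Rik on their own strand, mir-194-1 in its intron and mir-215 in its exon. On chromosome 19, mir-194-2 (bases 6264643 to 6264728, plus strand) precedes mir-192 (bases 6264844 to 6264932) by 115 bases, with no longer gene around them. Stretches of 20 bases shared with a transcript that is not a miRNA were found for mir-215 alone among these 6, and that transcript is its own host 2010103J01Rik.

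Levels within the erythroid and within the liver and gut set spanned a wide range. On the erythroid side, mir-486b and mir-486a had mean log2 expressions of 11.84 and 11.81 in the authors' deposited table, ranks 28 and 29 of 539. The hairpin mir-451a was at 6.76 (rank 143) and mir-144 at 4.15 (rank 210) in the authors' deposited table. On the liver and gut side, mir-192 stood at 10.05 (rank 65) in the authors' deposited table. The other rows were mir-194-2 at 5.15 (rank 180), mir-194-1 at 3.82 (rank 219), mir-122 at 2.15 (rank 283) and mir-215 at 1.47 (rank 317) in the authors' deposited table. The median of all hairpins was 2.34 in the authors' deposited table, so mir-122, the defining miRNA of hepatocytes, and mir-215 lay below it and the other 7 above it. The mature strands printed here are 20 to 23 bases long, so levels were compared without a correction for length. How well each sequence enters a small RNA library was not measured. Differences in level between hairpins are therefore differences in reads, and need not equal differences in molecules.

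These levels average both groups, and the table gives no error for them. If all 14 libraries entered the fit with equal weight, the standard error of a mean is that of the fold change divided by 2. That gives mean levels of 11.81 ± 0.41 (SE) for mir-486a, 10.05 ± 0.45 for mir-192, 6.76 ± 0.38 for mir-451a, 4.15 ± 0.73 for mir-144 and 2.15 ± 0.62 for mir-122, from the authors' deposited table. In the order of the 9 levels, 95% intervals of this kind overlapped between all neighbours except mir-192 and mir-451a, which were 3.29 log2 units apart in the authors' deposited table. All rows come from the same libraries and their correlation is unknown, so this overlap does not test whether 2 levels differ.

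**Figure D1:**
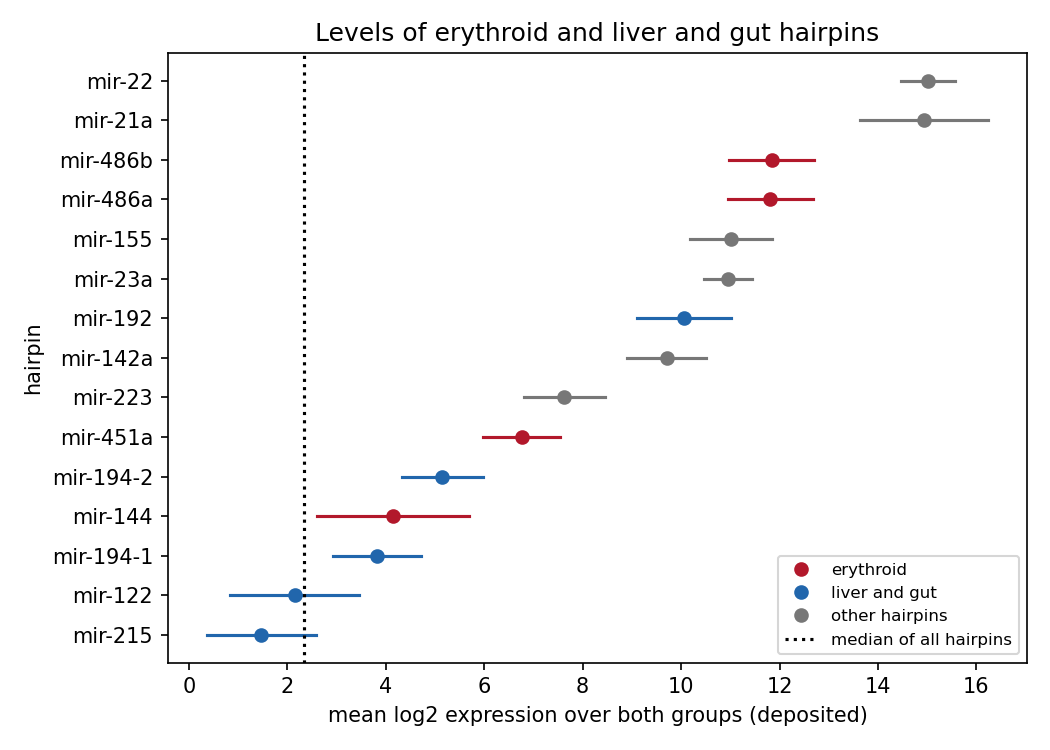
Mean log2 expression over both groups (x axis) of the 9 hairpins and of 6 reference hairpins (y axis), with 95% intervals that hold if all libraries had equal weight. mir-486a, mir-486b and mir-192 lie among the myeloid references, and mir-122 and mir-215 lie below the dotted median of 2.34.

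Hairpins known from macrophages and other leukocytes give a scale for these levels. The myeloid miRNA mir-223 had a mean log2 expression of 7.62 in the authors' deposited table, so mir-486a stood 4.19 above it as a log2 difference (18.2-fold) and mir-192 2.43 above it (5.37-fold). The leukocyte miRNA mir-142a was at 9.70 and mir-155 at 11.02 in the authors' deposited table, both below mir-486a. Above mir-486a lay the other 4 of the 7 macrophage and myeloid hairpins, mir-146a at 11.99, mir-146b at 12.39, mir-21a at 14.94 and mir-22 at 15.02 in the authors' deposited table. By contrast mir-451a lay 0.87 below mir-223 in the authors' deposited table and mir-122 lay 5.48 below it (44.6-fold). When 2 was raised to each mean log2 expression and summed over all 539 rows of the authors' deposited table, the 4 erythroid rows made up 1.37% and the 5 liver and gut rows 0.207%. The 7 macrophage and myeloid hairpins, led by mir-22 and mir-21a, made up 14.3% of that sum in the authors' deposited table. This list is not limited to hairpins that only macrophages make, so 14.3% is no measure of macrophage cargo against blood cargo. The rows mir-486a and mir-486b may count the same reads, which would then enter the erythroid share in duplicate, and without mir-486b that share was 0.691%.

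Markers of one tissue did not stand at one level. Among the erythroid rows, mir-486a exceeded mir-451a by 5.06 in mean log2 expression (33.3-fold), and mir-451a exceeded its cluster neighbour mir-144 by 2.61 (6.10-fold), in the authors' deposited table. On chromosome 19, mir-192 exceeded its neighbour mir-194-2 by 4.90 (30.0-fold) in the authors' deposited table. It exceeded mir-215, with which it shares a seed, by 8.58 (383-fold), and mir-122 by 7.90 (240-fold), in the authors' deposited table. On chromosome 1, mir-194-1 exceeded mir-215 by 2.35 (5.11-fold) in the authors' deposited table.

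The comparison of obese with lean asks whether these markers of blood and liver differ in level between the 2 groups of exosomes. At an adjusted p under 0.05, 0 of the 9 hairpins passed, while in the authors' deposited table limma's test called 30 of 539 hairpins (5.57%). At an unadjusted p under 0.05 the members again numbered 0 of 9, against 95 of 539 hairpins (17.6%) in the authors' deposited table. Among the 9, mir-194-2 had the smallest adjusted p, 0.509 in the authors' deposited table. Positive fold changes numbered 5 and negative ones 4 in the authors' deposited table, or 3 and 6 after recentring by 0.34, the median log2 fold change of the 180 most abundant hairpins, which turned mir-451a and mir-192 negative. The median log2 fold change of the 9 was 0.06, against 0.09 over all 539 hairpins of the authors' deposited table. A p that misses the threshold does not show equal levels, and the intervals below give the sizes that these libraries leave possible.

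Among the erythroid hairpins, mir-451a had a log2 fold change of 0.09 in the authors' deposited table (adjusted p = 0.965). The standard error that follows from its fold change and t is 0.75, and the 95% interval runs from −1.49 to 1.67, that is from 2.80-fold lower to 3.18-fold higher on the positive side. This fold change is the median of all 539 rows, and 25 rows of the authors' deposited table had a smaller absolute value. The cluster neighbour mir-144 was at −0.39 in the authors' deposited table (adjusted p = 0.937, 95% interval −3.46 to 2.69). Its standard error of 1.46 was the largest of the 9 and exceeded that of 90.5% of rows.

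The rows of mir-486 were negative in the authors' deposited table, at −1.09 (mir-486a, adjusted p = 0.526) and −1.08 (mir-486b, adjusted p = 0.529). The 95% interval of mir-486a runs from −2.83 to 0.64, from a 7.10-fold lower to a 1.56-fold higher level on the positive side, around an estimate of 2.14-fold lower. Thus 3 of 4 erythroid fold changes were negative, with 0 positive after recentring by 0.34, and 2 of those 3 come from 1 locus.

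Among the liver and gut hairpins, the abundant mir-192 had a log2 fold change of 0.06 in the authors' deposited table (adjusted p = 0.973). Its standard error was 0.91 and its 95% interval ran from −1.84 to 1.97. The largest absolute fold change of the 9 was that of mir-122, 1.36 in the authors' deposited table (adjusted p = 0.612), and its 95% interval from −1.24 to 3.97 was also wide. In size this fold change exceeded 66.0% of all rows of the authors' deposited table. The seed partner of mir-192, mir-215, was at 0.86 in the authors' deposited table (adjusted p = 0.719, 95% interval −1.36 to 3.08). The copies of mir-194 had opposite signs in the authors' deposited table, 1.11 for mir-194-1 (adjusted p = 0.530) and −1.08 for mir-194-2 (adjusted p = 0.509), and both intervals include 0.

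**Figure D2:**
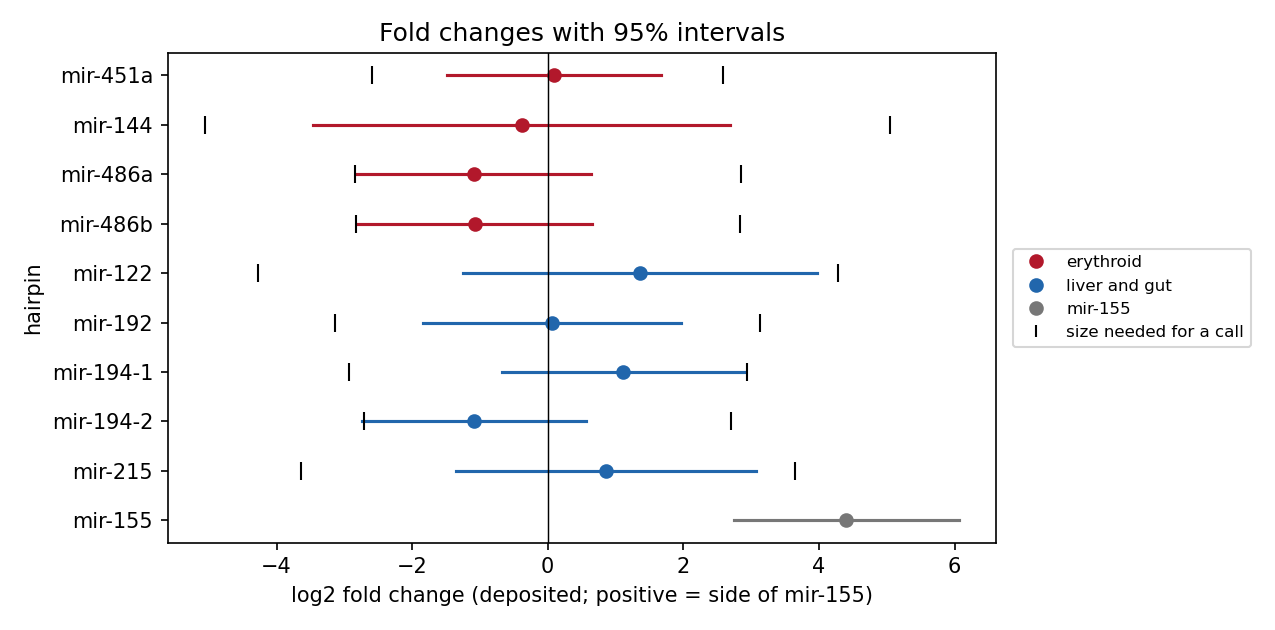
Log2 fold change (x axis) with its 95% interval for the 9 hairpins and for mir-155 (y axis). Black ticks mark the size that each of the 9 would have needed for a call at its standard error. All 9 intervals include 0, while that of mir-155 starts at 2.75.

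The precision differed between members. Standard errors of the log2 fold change ran from 0.75 for mir-451a to 1.46 for mir-144, with a median of 0.85, against 0.97 over all 539 rows. With 30 of 539 rows called, 1 more row would be called at an unadjusted p under 0.00288, that is at an absolute t above 3.45. At its standard error, mir-451a would then have needed a log2 fold change of 2.59 (6.02-fold), mir-486a 2.85 (7.19-fold), mir-192 3.13 (8.76-fold), mir-122 4.28 (19.4-fold) and mir-144 5.05 (33.1-fold). For comparison, mir-155 was at 4.41 with a standard error of 0.79 (adjusted p = 0.00205) in the authors' deposited table.

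**Figure D3:**
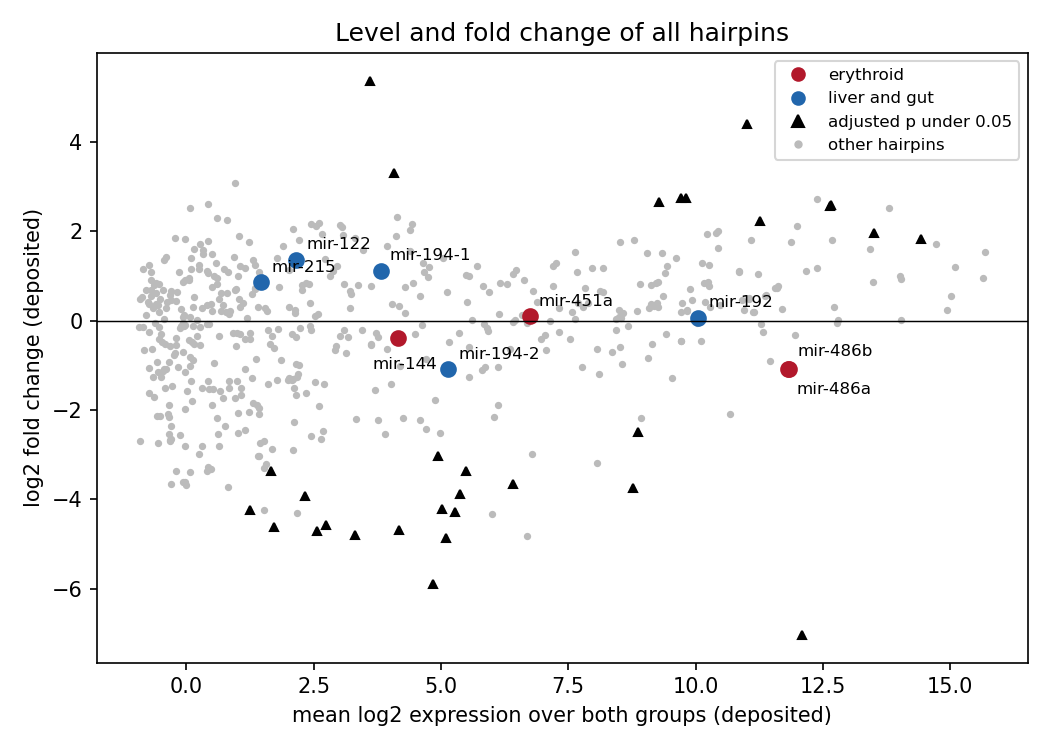
Deposited log2 fold change (y axis) against mean log2 expression (x axis) for all 539 hairpins, with the 9 members as coloured points and the 30 called hairpins as triangles. The members lie between −1.09 and 1.36 on the y axis, inside the cloud of hairpins that were not called.

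In plasma work, miR-451a is often set against miR-23a, a miRNA that red cells hold little of, as a sign of ruptured red cells. The difference of 2 rows does not depend on the scaling between libraries if that scaling is 1 factor per library. Which scaling the authors used is not stated. Here the level of mir-451a lay 4.19 log2 units below that of mir-23a (18.3-fold) in the authors' deposited table. The log2 fold changes of the pair were 0.09 and 0.24 in the authors' deposited table, which differ by 0.14, so the point estimate of this ratio was nearly the same in both groups. The error of that difference needs values per library and was not computed, and it lies between 0.28 and 1.22 whatever the correlation of the rows. Against mir-23a, the log2 fold changes of the other erythroid rows differed by −1.33 (mir-486a), −1.32 (mir-486b) and −0.62 (mir-144), which was not tested.

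Some rows share sequence, which bears on how many measurements the 9 rows hold. The hairpin mir-451b, which is no member, is the reverse complement of mir-451a over all 72 bases. Both are printed 5′ to 3′ with the mature strand in capitals.
mir-451a: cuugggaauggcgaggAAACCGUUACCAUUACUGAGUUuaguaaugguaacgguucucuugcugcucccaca
mir-451b: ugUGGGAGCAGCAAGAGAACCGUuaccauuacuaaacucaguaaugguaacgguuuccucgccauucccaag
On the same strand mature miR-451a has at most 16 of its 22 bases in a row within mir-451b. The row of mir-451b nevertheless had a mean log2 expression of 6.79 and a log2 fold change of 0.15 in the authors' deposited table, 0.03 and 0.05 from the values of mir-451a. The rows mir-486a and mir-486b, known to lie on opposite strands of 1 locus, differed by 0.03 in level and by 0.02 in log2 fold change in the authors' deposited table. No label or header says whether the counting used strand, so it is unknown whether the reads of these partners were counted apart. Each of these pairs, mir-451a with mir-451b and mir-486a with mir-486b, may hold only 1 measurement, which was not tested.

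Over the table, 8 pairs of hairpins overlapped on opposite strands by their RefSeq positions. In the authors' deposited table these partners differed by a median of 0.10 in log2 fold change, and 6 of the 8 pairs differed by less than 0.2. The pair of mir-451a had the smallest difference of the 8, and the largest was 1.55, for mir-219a-1 and mir-219c. In level mir-219a-1 and mir-219c were also apart, by 3.89 log2 units, against 0.03 for the pair of mir-451a. Partners on opposite strands thus did not all have like values.

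The copies of mir-194 stood apart from most copies. They share miR-194-5p, shown in capitals within both hairpins, and this run of 22 bases is the longest they have in common.
mir-194-1: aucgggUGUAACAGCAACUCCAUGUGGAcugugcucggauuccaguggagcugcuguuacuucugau
mir-194-2: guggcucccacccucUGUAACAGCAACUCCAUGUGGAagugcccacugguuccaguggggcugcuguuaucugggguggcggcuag
Among the 447 rows of the authors' deposited table that matched RefSeq, 28 pairs of hairpins share a whole mature strand, and the median difference of their log2 fold changes was 0.16. The pair of mir-194 differed by 2.20 in log2 fold change, the third largest of the 28 after mir-365-1 with mir-365-2 (4.73) and mir-29b-1 with mir-29b-2 (3.12), in the authors' deposited table. Opposite signs occurred in 4 of the 28 pairs. The difference between mir-194-1 and mir-194-2 was not tested, since its standard error may lie anywhere between 0.07 and 1.64 without values per library. In level, mir-194-2 exceeded mir-194-1 by 1.32 (2.50-fold) in the authors' deposited table. No label or header says how reads that fit both copies were assigned, so the opposite signs cannot be assigned to the loci.

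**Figure D4:**
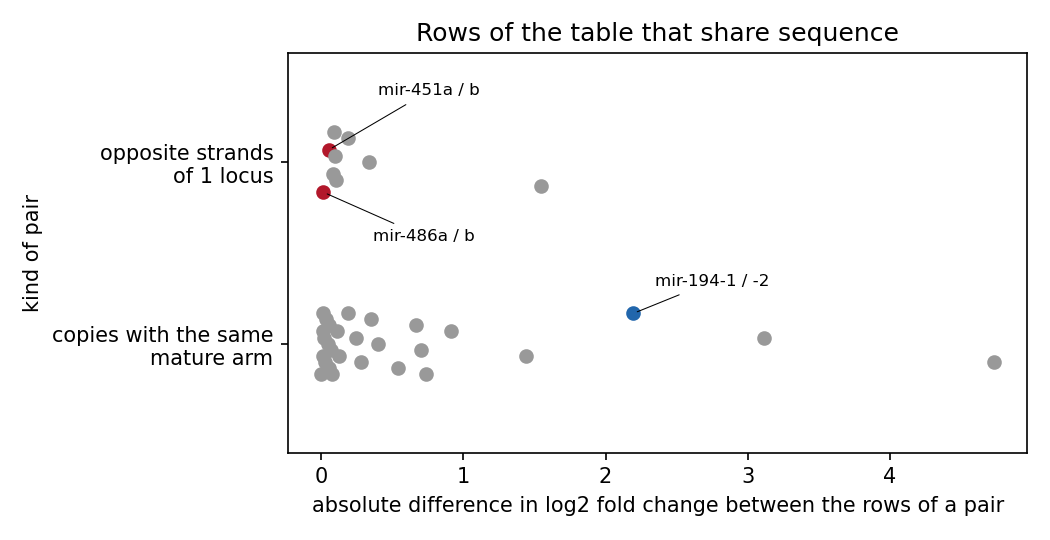
Absolute difference in log2 fold change (x axis) between the rows of each pair that shares sequence, for opposite strands of 1 locus and for copies with the same mature strand (y axis; points are spread vertically only for legibility). The pairs of mir-451 and mir-486 lie at 0.05 and 0.02, and that of mir-194 at 2.20.

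Further lists give the surroundings of these markers. Of 8 hairpins that are abundant in red cells but broadly expressed, such as the miR-15/16 group, 0 passed (5.57% over all hairpins). An unadjusted p under 0.05 was found for 3 of the 8 (17.6% over all hairpins) in the authors' deposited table. These 3 were mir-92a-1, mir-25 and mir-92a-2, at log2 fold changes of 2.52, 1.11 and 1.93, and none was of the miR-15/16 group. Positive fold changes numbered 6 of the 8, against 284 of all 539 (4 and 221 after recentring by 0.34). The median log2 fold change of the 8 was 0.65 in the authors' deposited table. These rows are not 8 separate measurements. Among them, mir-16-1 and mir-16-2 share a mature strand and differed by 0.002 in log2 fold change, and mir-92a-1 and mir-92a-2 are copies by name. The most abundant and the one of smallest p was mir-92a-1, a member of the miR-17-92 cluster, which the authors' deposited table gives at 2.52 (adjusted p = 0.0717) with a mean log2 expression of 13.81. The 4 erythroid rows had a median of −0.73 in the authors' deposited table, or −0.39 with mir-486 counted once. Of 9 markers of gut epithelium and other liver or pancreas, 8 had a row and 0 passed (5.57% over all hairpins). An unadjusted p under 0.05 was found for 3 of them (17.6% over all hairpins). Of these 8, 4 were positive and 4 negative, or 3 positive after recentring by 0.34, against 284 and 221 positive of all 539. The mean log2 expression of these 8 reached at most 3.62, for the epithelial mir-141, in the authors' deposited table, far below the 10.05 of mir-192. The smallest p of that list belonged to mir-429, of the miR-200 family, at 2.30 and a mean log2 expression of 0.60 (adjusted p = 0.123) in the authors' deposited table.

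For striated muscle, which also makes miR-486, the 2 rows found were those of mir-133a-1 and mir-133a-2, at mean log2 expressions of 2.27 each and log2 fold changes of 0.69 and 0.80 in the authors' deposited table, both not called. In the authors' deposited table the level of mir-133a-1 thus lay 9.54 log2 units below that of mir-486a. Of the 7 macrophage and myeloid hairpins 1 passed, mir-155, which fixes the direction used here and whose own sign is no evidence, against 5.57% of all hairpins. Of the other 6, 5 were positive, or 4 after recentring by 0.34 (52.7% of all hairpins before recentring), with a median log2 fold change of 1.04 in the authors' deposited table. In bulk RNA of this kind, fewer vesicles of a type and less of a miRNA per vesicle cannot be told apart.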

How the data were processed

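The material is 1 table of the authors' comparison of exosomes from obese and lean adipose tissue macrophages (7 libraries each), with 539 rows and 0 columns of values per library. Log2 fold changes and mean log2 expression were deposited by the authors, with a scaling between libraries that no label or header states. The t that the authors deposited is a score with no fixed range. The p-values were deposited by the authors as unadjusted and adjusted, and B is a natural log of odds, per the file headers. Tools named in the submitters' processing notes, with no role, are limma, edgeR, Novoalign, Trimmomatic 0.30, MultiQC and FastQC. No label or header states the genome build, the miRNA annotation, a filter on low values, or the handling of strand and of reads that fit several hairpins, and these steps decide which reads enter a row.

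The adjusted p equals a Benjamini-Hochberg adjustment over 539 rows (largest difference 1.46e-14). Dividing each fold change by its t gave its standard error, and 95% intervals were set with the 17.9 degrees of freedom recovered from t and p. The t is a moderated one, so each standard error, interval and p also draws on the spread of the other hairpins. A hairpin is called at an adjusted p under 0.05. No model was fitted, and the depth per library is unknown. Of the 539 rows 447 matched a RefSeq hairpin by name. Coordinates are those of GRCm38.p6, whatever build the authors used. The calculations, in Python 3.11.15 with scipy 1.17.1, were tested on simulated data. Alternatives were another threshold, Holm adjustment, filters on level, 1 hairpin per stem, recentring and a 2-fold minimum. All hairpins of the rule are named, with mir-155, mir-22, mir-21a, mir-223, mir-142a and mir-23a as references and the most abundant hairpin and the one of smallest p of each further list. The hairpins mir-146a, mir-146b, mir-451b, mir-92a-2, mir-25, mir-219a-1, mir-219c, mir-365-1, mir-365-2, mir-29b-1 and mir-29b-2 were named after their values were seen. So were mir-16-1 and mir-16-2. The members and lists were chosen with earlier results of these data known.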

Additional observations from a re-analysis of the deposited data

How the results depend on the processing

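Under 8 other settings, 0 of the 9 hairpins were called each time. Holm adjustment and the 2-fold minimum can only remove calls. The threshold of 0.1 lies below 0.509, the smallest adjusted p of the 9 as deposited. These settings could therefore not have added a call among the 9. Only the 2 recentrings change a member's log2 fold change, and 14 of their 18 values kept the sign. The exceptions were mir-451a and mir-192, whose log2 fold changes became 0.0 and −0.027 after recentring by 0.09, the median of all rows (mir-451a is that median row), and −0.25 and −0.28 after recentring by 0.34, the median of the 180 most abundant rows. The smallest adjusted p of any member under any of these settings was 0.368, for mir-194-2 after recentring by 0.34. The filter at the median level left out mir-122 and mir-215, and the use of 1 hairpin per stem left out mir-194-1. Over all 539 hairpins, Holm adjustment called 11 in place of 30, and the other settings called from 26 to 45. Of the 30 calls 11 were positive and 19 negative, against 8 and 25 after recentring by 0.34. No paired analysis was possible because single libraries have no values here, so the fit with a replicate block was not run. Precision is limited by the spread between libraries, and depth is unknown.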
